A study of Mus musculus with 24 samples.

Results

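A set of 9 arrays of cultured cells was compared with 15 arrays of tissue, to find the transcripts that were at least 5-fold lower or higher in each of 3 cell lines than in each of 5 tissues. The lines were F9, GC-1 and GC-2, with 3 arrays each, and the tissues, brain, heart, kidney, liver and testis, came from ICR males aged 8 weeks, also with 3 arrays each, so that the comparison took in all 24 arrays of the study. Members were chosen by the sample labels alone. F9 is an embryonal carcinoma line and was grown on gelatin without retinoic acid, which makes these cells differentiate. GC-1 is an immortalized germ cell line taken to stand between the type B spermatogonium and the primary spermatocyte. GC-2 is taken to resemble the spermatocyte. Cells were taken at passage 3 or 4. The labels name no engineered allele and no treatment, and each group was described as 3 biological replicates.

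Cultured lines and adult organs differ in ways that are well known. Cells in culture divide continuously, and dividing cells make the enzymes and motor proteins of DNA replication and mitosis, whereas most cells of adult brain, heart, kidney and liver are at rest and testis holds dividing germ cells. Organs also hold blood, vessels and immune cells, which a culture lacks. In RNA from whole organs, fewer cells of a type and less RNA per cell cannot be told apart.

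Each array measured 60804 transcripts with 60-base probes. A log2 level in this text is the log2 of a probe's intensity minus the 75th percentile of its array, so 0 is the 75th percentile, and differences are in the same log2 units. A probe was counted as above background where the scanner software marked its signal as well above the local background. The 75th percentile of intensity ranged from 30.7 to 384 between arrays, and 23525 to 28655 probes were above background on the line arrays against 18257 to 37393 on the tissue arrays. Replicate 1 of every group was on the same slide. Replicates 2 and 3 of the lines and of heart were on another slide, and those of brain, kidney, liver and testis on a further slide. Away from the slide of replicate 1, the lines and these last tissues shared no slide, so slide and comparison cannot be told apart there. Liver replicate 1 and GC-2 replicate 1 stood apart from their groups: 1079 and 450 transcripts were over 8-fold away from the mean of the other arrays of the group, against 44 to 279 on the remaining 22 arrays. Liver replicate 1 had the fewest probes above background (18257). The 95th percentile of its negative control spots was 13.6, against 2.97 to 4.97 on the other arrays. The deposited files carry no gene names, and only 3478 probes (5.72%), 3218 for lncRNAs and 260 for mRNAs, could be named through the supplementary lists of the study. Those lists hold the lncRNAs with the strongest signal in F9 or brain. They also hold lncRNAs that the study selected on these same samples as specific to a tissue. The mRNAs in them were selected by the study on the same samples as specific to testis among the tissues and present in a line. For the named mRNAs, low levels in brain, heart, kidney and liver and testis as the highest tissue were thus fixed by how they were selected and are not independent evidence. For lncRNAs selected as specific to testis the same holds. Tissue and cell identity could not be checked with marker genes: no gene of the lists for red blood cells, endothelial cells, fibroblasts, brain, heart, kidney or liver could be identified with a probe of its own, and the lists for embryonal carcinoma, germ cells and Sertoli or Leydig cells gave 1 gene each.

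Of the 60804 transcripts, 86 (0.141%) were lower and 285 (0.469%) were higher in every line than in every tissue, at 5-fold or more and with an adjusted p of 0.05 or less in each of the 15 comparisons of 1 line with 1 tissue (limma). The fold rule alone gave the same counts. The 15 comparisons share arrays and are not independent of each other. Among the 86, 85 had all 9 line arrays below all 15 tissue arrays, where 0.673% of all transcripts did so, and among the 285, 283 had all line arrays above all tissue arrays, where 4.63% of all transcripts did so. Only 2 of the 86 (2.33%) and 41 of the 285 (14.4%) had a name. The transcripts just inside and just outside the threshold were separated by little: the smallest of the 15 differences was 2.32 on both sides among the higher ones, and was -2.34 inside and -2.31 outside among the lower ones.

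The probe sequences of the transcripts that carry these results are shown first, because each value here is what bound to 60 bases of DNA. They were taken from the supplementary lists of the study and are written 5′ to 3′. The first pair are the named transcripts that were lower in every line, an alpha globin pseudogene and a transcript from the T cell receptor beta locus.

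Hba-ps4: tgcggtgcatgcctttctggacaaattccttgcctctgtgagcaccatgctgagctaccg
TCR-beta chain: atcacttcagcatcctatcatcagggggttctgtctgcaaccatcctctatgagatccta

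The next 3 were higher in every line: Snhg1, which hosts small nucleolar RNAs in its introns, and pseudogenes of thymidylate synthase and of PCNA, both proteins of DNA synthesis.

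Snhg1: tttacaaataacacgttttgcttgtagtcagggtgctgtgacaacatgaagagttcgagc
Tyms-ps: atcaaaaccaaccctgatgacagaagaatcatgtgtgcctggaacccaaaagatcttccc
Pcna-ps1: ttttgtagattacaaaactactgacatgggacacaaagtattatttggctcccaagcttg

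The last 7 are probes that share sequence within 2 sets, 6 of them of pseudogenes, while Gm10298 has no RefSeq class here. Capitals mark the longest run common to the members of a set, 13 bases in the first set and 15 in the second. In the first set the Gm20379 and Gm5899 probes matched at 55 of 60 bases when aligned. Gm10298 was just outside the 5-fold threshold and the other 6 were called higher in every line.

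Gm7125: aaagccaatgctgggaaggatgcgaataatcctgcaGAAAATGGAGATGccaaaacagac
Gm5899: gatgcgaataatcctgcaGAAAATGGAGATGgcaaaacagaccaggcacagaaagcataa
Gm20379: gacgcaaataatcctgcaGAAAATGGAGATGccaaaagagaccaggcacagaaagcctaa
Gm10298: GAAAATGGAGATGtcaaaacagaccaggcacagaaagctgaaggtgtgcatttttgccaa
Gm17060: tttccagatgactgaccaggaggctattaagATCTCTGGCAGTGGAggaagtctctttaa
Gm14776: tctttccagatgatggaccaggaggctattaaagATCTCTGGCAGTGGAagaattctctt
Gm12583: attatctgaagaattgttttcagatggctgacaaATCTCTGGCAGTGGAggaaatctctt

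Among transcripts lower in every line, Hba-ps4 had the largest difference of any named transcript. It is a pseudogene related to the alpha chain of hemoglobin and is annotated as an intergenic lncRNA at chr17:26286363-26287061 on the minus strand (GRCm38). Its level in the lines had a lowest value of -3.71, a median of -1.96 and a highest value of -0.58, and in the tissues a lowest value of 5.71, a median of 10.39 and a highest value of 11.98. No line array came near a tissue array. The tissue means were 11.56 ± 0.49 in heart, 11.44 ± 0.44 in liver, 10.41 ± 0.78 in kidney, 10.22 ± 0.20 in brain and 5.92 ± 0.27 in testis (SD, n = 3), so testis was the lowest tissue. The mean of the lines minus the mean of the tissues was -11.95 (SE 0.201, adjusted p = 1.69e-20, limma). The closest pair, GC-1 and testis, differed 135-fold, and GC-1 and brain differed 2650-fold. The probe was above background on all 3 GC-1 arrays, on 2 of 3 F9 arrays and on no GC-2 array. No other red blood cell gene was identified, so the part of blood in this value was not tested.

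The TCR-beta chain transcript lies at chr6:41543364-41548352 on the plus strand, in the locus of a receptor chain that T cells make. Its levels in the lines ran from -5.32 through a median of -4.46 to -2.66, and those in the tissues from 0.68 through 2.19 to 4.36, without overlap. It was above background on 1 of 9 line arrays, GC-1 replicate 1, and on all 15 tissue arrays. Brain had the highest mean at 3.99 ± 0.34, followed by testis at 3.09 ± 0.07, liver at 1.88 ± 0.72, kidney at 1.09 ± 0.18 and heart at 1.05 ± 0.34 (SD, n = 3). Kidney and heart did not differ beyond their spread. Because the lines were mostly not above background, the difference is a bound, and the smallest, for F9 minus heart, was -3.46 or lower. The fitted mean difference was -6.73 (SE 0.236, adjusted p = 7.84e-16, limma). The study lists 6 other transcripts that this probe could match, and it was the 1 named call in this direction that was lost with another background correction.

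The remaining 84 transcripts of this set have no name here. Over all 86, the median of the group means was -4.44 for F9, -4.68 for GC-1 and -4.92 for GC-2, against 2.69 in heart, 2.15 in liver, 1.62 in brain and 1.36 in kidney, with testis between brain and kidney. Testis was the closest tissue for 35 of the 86, and F9 the closest line for 44. On the line arrays 51 of the 86 were never above background and 2 were above it on all 9, while 70 were above it on all 15 tissue arrays.

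**Figure D1:**
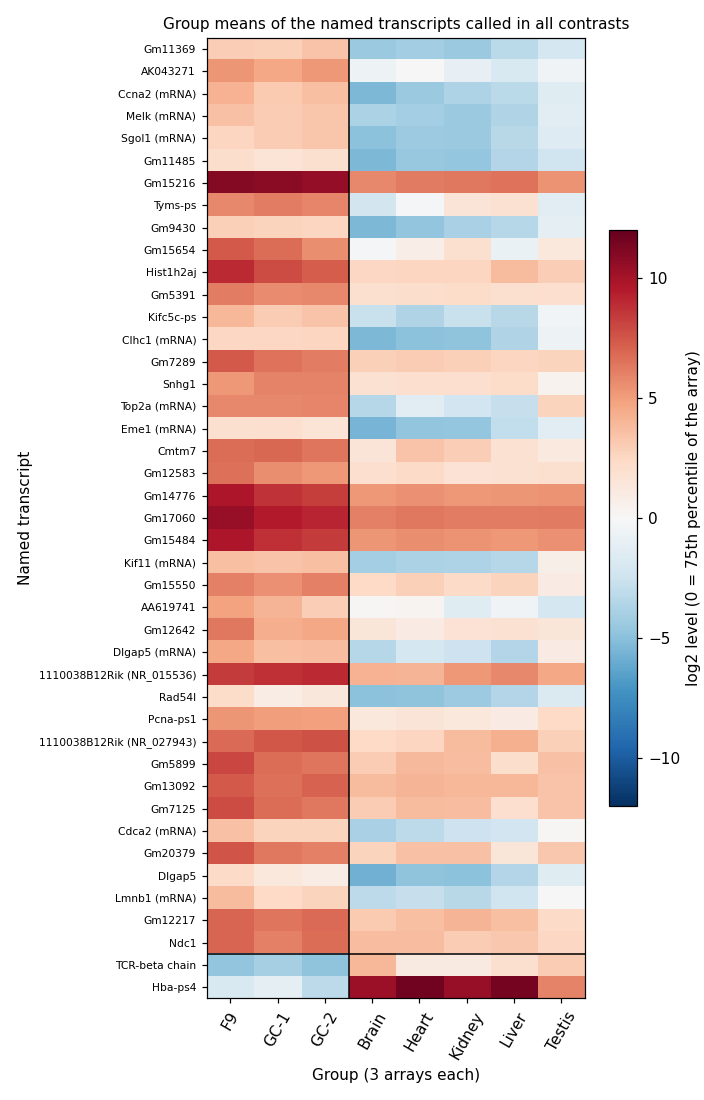
Group means of the 43 named transcripts called in all 15 comparisons, on the log2 scale with 0 at the 75th percentile of the array, for 3 lines and 5 tissues of 3 arrays each; transcripts are ordered by their smallest difference. The 41 transcripts above the horizontal line were higher in every line, and the 2 below it, TCR-beta chain and Hba-ps4, were lower.

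Of the 260 named mRNAs, 10 (3.85%) were higher in every line, against 0.469% of all transcripts, and since the 260 were selected on these samples nothing is read from that share. Ccna2 encodes cyclin A2, which drives DNA synthesis and entry into mitosis. Its level in the lines ran from 3.10 through a median of 3.66 to 4.40, and in the tissues from -5.74 through -3.53 to -1.16. Testis was the only tissue in which it was above background, on all 3 arrays at -1.48 ± 0.29 (SD, n = 3). The closest measured pair, GC-1 and testis, differed 25.4-fold, and the bound against liver was lower, at least 22.2-fold. Its mean difference was 7.30 (SE 0.167, adjusted p = 1.08e-18, limma).

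Top2a encodes the topoisomerase that untangles replicated chromosomes. The 9 line arrays lay between 5.49 and 6.11 with a median of 5.83, and the 15 tissue arrays between -3.49 and 3.02 with a median of -2.24. The 3 line means, 5.77 ± 0.31 for GC-1, 5.81 ± 0.22 for F9 and 5.88 ± 0.11 for GC-2, did not differ beyond their spread. Testis was at 2.71 ± 0.30 and the closest line, GC-1, was 8.34-fold above it, whereas heart, above background on 2 of 3 arrays, was 138-fold below the closest line.

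Kif11 encodes a kinesin that pushes the poles of the spindle apart. Its line levels were 3.20 to 3.75 and its tissue levels -4.67 to 1.00, with all 3 testis arrays at the top of the tissues. The closest pair was GC-1 and testis at 6.51-fold. Melk, a kinase of dividing cells, was at 2.67 to 3.82 in the lines and at -4.82 to -1.03 in the tissues, 20.6-fold apart for GC-1 and testis and at least 20.4-fold apart for GC-1 and liver. Sgol1, which protects the cohesion of sister chromatids, was at 2.40 to 3.69 in the lines and at -5.75 to -1.47 in the tissues, and its smallest bound was 14.7-fold for F9 and liver.

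The other 5 named mRNAs were closer to the threshold in most cases. Clhc1 (8.65-fold above testis at the least) and Eme1, part of a nuclease that resolves recombination intermediates (7.67-fold at the least, against liver), were above background in testis alone among the tissues. Dlgap5, a spindle protein, Cdca2, a protein of mitotic chromosomes, and Lmnb1, a lamin of the nuclear envelope, had smallest folds of 5.97, 5.58 and 5.15. With the slide as a block all 3 calls were lost, at smallest differences of 2.242, 1.567 and 1.975. For Lmnb1 the call was lost without testis replicate 2 or without GC-1 replicate 1, when the smallest difference was 2.30. Testis had the highest tissue mean for all 10, which their selection as specific to testis fixed. Of the proliferation list of 34 genes only Ccna2, Top2a and Kif11 could be identified with an mRNA probe, through that same selected list. All 3 were higher in every line, where 0.469% of all transcripts and 10 of the 260 named mRNAs were. LncRNA probes at the loci of Cdc20, Gmnn and Aurkb, also on the list, were not called in every line. Their mean differences were 5.585, 2.82 and -0.42.

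**Figure D2:**
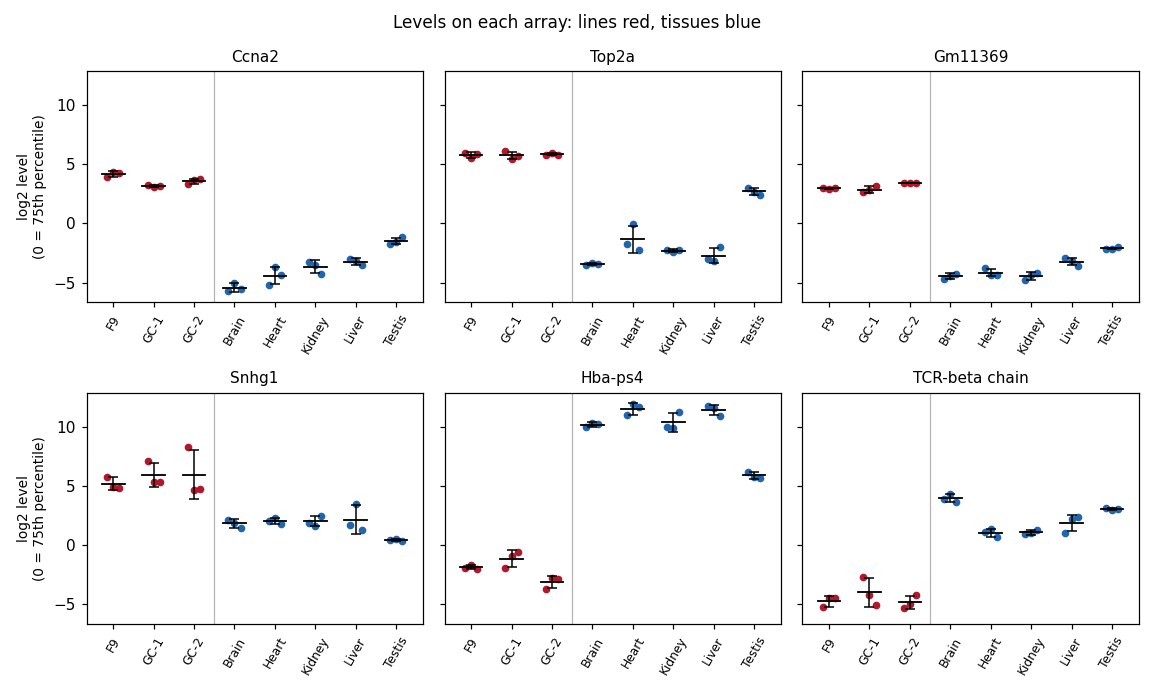
Log2 level on each of the 24 arrays for 6 transcripts, with lines in red and tissues in blue; points are arrays, black bars the mean ± SD of 3 arrays, and 0 is the 75th percentile of the array. For Ccna2, Top2a, Gm11369 and Snhg1 all 9 line arrays lay above all 15 tissue arrays, and for Hba-ps4 and TCR-beta chain all 9 lay below.

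Promoters were read for the called mRNAs because many genes of mitosis are known to be switched on late in the cell cycle through short elements with the letters TTTGAA or TTCGAA and through CCAAT boxes. The 2 promoters that held both kinds are printed. RefSeq (GRCm38.p6) gave a promoter for 5 of the 10 genes, and the 250 bases before the start were searched on both strands. The capitals mark these elements on either strand. Read from the opposite strand, a CCAAT box appears as ATTGG. The first of the others appears there as TTCAAA, and the second is its own reverse. The Top2a window is chr11:99024190-99024439 on the minus strand and the Kif11 window is chr19:37376132-37376381 on the plus strand.

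Top2a: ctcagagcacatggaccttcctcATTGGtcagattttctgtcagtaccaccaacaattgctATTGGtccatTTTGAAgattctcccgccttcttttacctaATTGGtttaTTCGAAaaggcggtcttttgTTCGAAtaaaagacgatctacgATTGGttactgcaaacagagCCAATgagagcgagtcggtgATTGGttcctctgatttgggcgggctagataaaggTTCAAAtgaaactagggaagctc
Kif11: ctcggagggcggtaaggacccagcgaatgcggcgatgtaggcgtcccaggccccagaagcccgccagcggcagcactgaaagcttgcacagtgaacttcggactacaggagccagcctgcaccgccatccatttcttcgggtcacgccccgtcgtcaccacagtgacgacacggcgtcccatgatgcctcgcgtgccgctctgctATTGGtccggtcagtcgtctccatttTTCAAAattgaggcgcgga

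Top2a held 6 copies of CCAAT, 2 of TTTGAA and 2 of TTCGAA, and Kif11 held 1 of CCAAT and 1 of TTTGAA. The windows of Melk, Sgol1 and Eme1 held none of these. Of 32851 promoters in the table, 33.8% held CCAAT, 16.0% held TTTGAA, 1.34% held TTCGAA and 6.02% held CCAAT together with one of the others. These matches are descriptions of the letters and were not tested for use.

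LncRNA probes gave 31 of the 41 named calls, and pseudogenes were common among them. Of the 27 with a RefSeq class, 20 were pseudogenes (74.1%). The share was 624 of 1735 among all named lncRNAs with a class and 66.3% of the 839 named through the list of lncRNAs with strong signal in F9, which supplied 25 of the 31. By position, 14 of the 26 with a listed subtype were intergenic and 6 were intronic antisense, where 1180 and 195 of the 2095 named lncRNAs with a subtype were. Whether these probes read the pseudogene or the mRNA of the parent gene was not tested.

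Gm11369, an intergenic transcript at chr13:30399617-30399934 on the minus strand, was the named transcript farthest above its nearest measured tissue. Among transcripts without a name the largest smallest difference was 6.42, which was higher still. The line arrays of Gm11369 ran from 2.63 through 3.01 to 3.47 and its tissue arrays from -4.78 through -4.19 to -2.03. It was above background on the 3 testis arrays and on no other tissue array. For a lncRNA selected as specific to testis that pattern is fixed, and which list named Gm11369 is not given here. The fold was 31.4 for GC-1 against testis and at least 17.9 against liver. AK043271, an intergenic transcript at chr19:38970097-38971036 on the plus strand, was above background in every tissue, on 1 of 3 arrays in liver and on all 3 in the others. Its line levels were 4.48 to 5.81 and its tissue levels -2.49 to 0.01, and GC-1 was 26.7-fold above heart, the closest tissue.

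Some of the pseudogenes are copies of genes that dividing cells use. Tyms-ps, at chr10:87966671-87968017 on the plus strand, had line levels of 5.60 to 6.29 and tissue levels of -2.84 to 2.15. Its nearest tissues were liver (15.7-fold below F9) and kidney, and testis was at -1.23 ± 0.15 (SD, n = 3), so the order of its tissues was not that of Ccna2. Hist1h2aj, a histone H2A pseudogene in the RefSeq table, was at 7.16 to 9.50 in the lines and at 2.26 to 4.36 in the tissues, with GC-2 closest to liver at a difference of 3.52. Pcna-ps1 was at 4.59 to 5.59 and 0.74 to 2.86, with a smallest fold of 5.82 for GC-2 and testis that fell below 5 without GC-2 replicate 1, at a difference of 2.22.

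A further 3 intergenic pseudogenes were above background on all 24 arrays. Gm15216, on the X chromosome, was at 10.30 to 11.33 in the lines and 5.37 to 6.98 in the tissues, 16.0-fold apart for GC-2 and liver. Gm5391, also on the X chromosome, varied little among tissues: their means lay between 1.89 ± 0.10 in brain and 2.18 ± 0.21 in kidney (SD, n = 3), and the line means between 5.64 ± 0.18 in GC-1 and 6.16 ± 0.35 in F9, with a smallest difference of 3.46 for GC-1 and kidney. Gm7289 had a smallest fold of 8.38, for GC-2 and heart.

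For the related probes printed above, F9 was the highest line and GC-2 the lowest in every case. Gm7125, Gm5899 and Gm20379 were at 7.87 ± 0.21, 7.97 ± 0.23 and 7.55 ± 0.44 in F9, and at 6.30 ± 0.29, 6.38 ± 0.25 and 6.02 ± 0.17 in GC-2 (SD, n = 3), and liver was the lowest tissue for each, at 1.99, 2.08 and 1.43. Their smallest folds were 5.65, 5.71 and 5.53, and Gm10298 followed at a difference of 2.32, just outside. The call of Gm20379 was lost without kidney replicate 1. Gm17060, Gm14776 and Gm12583 had smallest folds of 7.22, 7.23 and 7.29, all for GC-2 and heart. Transcripts whose probes share sequence cannot be counted as separate findings.

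Among lncRNAs that host small nucleolar RNAs, 6 of 22 listed genes were identified with 14 probes, and 1, Snhg1, was higher in every line, where 0.963% of the named lncRNA probes and 0.469% of all transcripts were. Snhg1 lies at chr19:8723487-8726326 on the plus strand, beside Slc3a2. Its lines ran from 4.72 through 5.34 to 8.36 and its tissues from 0.36 through 1.78 to 3.54. The highest value of each line was on replicate 1, at 5.82 for F9, 7.12 for GC-1 and 8.36 for GC-2, where the other GC-2 arrays were at 4.72 and 4.79. The mean difference was 4.002 (SE 0.369, adjusted p = 4.47e-09) and the smallest fold was 8.35, for F9 and liver (adjusted p = 0.00115, limma). Without GC-2 replicate 1 and liver replicate 1 together the smallest difference was 2.36 and was still called. The replicate 1 arrays of all groups were on the same slide. With the slide as a block the smallest difference of Snhg1 was 3.19, and within that slide, by fold alone, it was 3.66. The part of the slide in the spread of Snhg1 between arrays of a group was not tested.

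Snhg6 was higher in the mean of the lines (2.49, SE 0.172, adjusted p = 4.32e-11) but GC-1 was only 0.64 above liver. The 9 probes of Gas5, another host gene, had mean differences of 0.23 to 2.21 and none was called. Snhg3 (-1.48), Snhg11 (-0.55) and Dancr (0.63) were not called either. 1110038B12Rik, a lncRNA at chr17:34950236-34952471 on the minus strand that was not on a list, was called higher by its NR_015536 and NR_027943 probes. Uncalled probes of it, if any, are not given here. The NR_015536 probe was at 8.10 to 9.43 in the lines and 3.76 to 6.36 in the tissues, and the other at 6.38 to 8.12 and 1.96 to 4.83. F9 and liver were the closest pair for both, 5.93-fold and 5.74-fold, and both calls were lost without liver replicate 3.

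Other calls rested on single arrays or on bounds. Without 1 array, 9 of the 43 named calls fell below 5-fold for at least 1 choice of the array, and 34 did not. Beside those given above they were Ndc1 (5 of the 24 arrays, smallest difference 2.09 to 2.32), Gm12217 (kidney replicate 1 or GC-1 replicate 3), Gm13092 (heart replicate 2) and the Dlgap5 lncRNA (testis replicate 1 or GC-2 replicate 2). The lncRNA probes of Rad54l, a gene of homologous recombination, and of Dlgap5 were below background in all tissues but testis, and their bounds against liver, 4.39-fold and 4.54-fold, were under 5-fold. With the slide as a block 35 of the 41 higher calls and both lower ones were kept. Beside the 3 mRNAs given above, the calls lost were those of Gm12217 (2.22), the Dlgap5 lncRNA (2.296) and the NR_027943 probe of 1110038B12Rik (2.318). Within the slide of replicate 1, by fold alone, 31 of the 41 were kept.

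Over all 285 transcripts, named or not, the median group mean was 3.75 in F9, 3.35 in GC-2 and 3.33 in GC-1, and -0.65 in testis, -1.05 in heart, -1.16 in kidney, -1.34 in brain and -1.79 in liver. Testis was the closest tissue for 95, heart for 73, liver for 48, kidney for 40 and brain for 29. Heart was the only tissue that shared a slide with the lines on replicates 2 and 3. GC-1 was the closest line for 130, GC-2 for 93 and F9 for 62. On the tissue arrays 102 were above background on all 15 and 7 on none. A count that does not depend on scaling between arrays gave 35 transcripts (0.0576%) above background on all 9 line arrays and no tissue array, of which 6 (17.1%) were among the 285, and 68 (0.112%) on all tissue arrays and no line array, of which 37 (54.4%) were among the 86. These 6 were 2.11% of the 285 and these 37 were 43.0% of the 86. None of the 35 or the 68 had a name.

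The mean of the 3 lines was also set against the mean of the 5 tissues, which allows the lines to disagree. By that contrast 2586 transcripts (4.25%) were lower and 2563 (4.22%) were higher. Its p-values measure the spread between arrays of a group and not between lines or between tissues. With 3 lines and 5 tissues, an exact permutation test whose two-sided p doubles the one-sided p cannot give a value below 0.0357. Of the 260 named mRNAs, 72 were higher and 1 was lower, a split that their selection favoured and from which nothing is read. The mRNAs with the largest differences, chosen after their values were seen, included Troap (6.45), Dscc1 (6.23), Kif23 (6.23), Nusap1 (5.69), Racgap1 (5.38) and Prc1 (5.38), which are known from cell division or the copying of DNA. In each of these 6 the lines were not 5-fold above testis throughout, and testis itself was above background on all 3 arrays. Against testis alone a lower level is favoured by the selection of these mRNAs for testis, so the counts are a description: 89 of 260 were lower and 27 higher with F9, 116 and 17 with the GC-1 arrays, and 118 and 18 with those of GC-2. Of all transcripts, 11.2% were lower and 20.0% higher with F9, 11.9% and 17.4% with GC-1, and 12.4% and 16.7% with GC-2.

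The lines did not behave as 1 group for several well-known transcripts. Meg3, an imprinted lncRNA, was at 4.83 ± 0.54 in F9 by the probe of NR_003633 and was not above background on any GC-1 or GC-2 array, where its levels were -5.04 ± 0.15 and -5.17 ± 0.40. In the tissues it ran from -2.16 ± 0.73 in kidney to 6.11 ± 0.50 in brain (SD, n = 3). The mean of the lines minus that of the tissues was -3.08 (SE 0.297, adjusted p = 8.93e-09, limma), although F9 was 6.99 above kidney. A second Meg3 probe was called as well (-2.72) and the other 5 of 7 were not, with differences of -0.66 to -1.25. The split of the lines was not common to all probes. Those of ENSMUST00000150851, uc007pat.2 and NR_027651 were above background on all F9, GC-1 and GC-2 arrays. The first of these was at 6.72, 6.36 and 5.91 in F9, GC-1 and GC-2. The NR_046475 and ENSMUST00000128178 probes were above background on 2 of 3 F9 arrays and on no GC-1 or GC-2 array. With each line or tissue taken as 1 unit, the adjusted p for the NR_003633 probe was 0.838 (limma).

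AK171116, at the locus of Laptm5, and BC025019, at that of Hook1, had a pattern like that of the NR_003633 probe of Meg3. The study lists a Laptm5 transcript that the AK171116 probe could match, and which of them it read was not tested. AK171116 was at 6.92 ± 0.24 in F9, above all 5 tissues (2.65 to 5.88), and at -4.90 and -5.03 in GC-1 and GC-2, on no array above background. BC025019 was at 5.93 ± 0.30 in F9, at 2.96 to 5.61 in the tissues, and at -5.09 and -4.79 in GC-1 and GC-2. Zfp42 encodes a transcription factor typical of pluripotent cells. It was at 4.65 ± 0.39 in F9, at -1.61 ± 0.26 in testis and above background nowhere else. Stra8, needed for the start of meiosis, was at 1.25 ± 0.34 in F9 and 0.10 ± 0.14 in testis (SD, n = 3) and above background on no GC-1 or GC-2 array.

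Cdkn2a and Peg13 went the other way. Cdkn2a encodes inhibitors of cell cycle entry. It was at 5.39 ± 0.51 in GC-1 and 5.37 ± 0.37 in GC-2, at -0.22 ± 0.81 in F9 and at 0.89 ± 0.32 in testis, and above background in no other tissue. Its mean difference was 6.91 (SE 0.175, adjusted p = 5.25e-18, limma), and with each line or tissue as 1 unit the adjusted p was 0.0885. Peg13, an imprinted lncRNA within Trappc9, was at -2.46 ± 1.32 in F9 against 2.87 ± 0.13 in GC-1 and 2.59 ± 1.11 in GC-2 (SD, n = 3), and its tissues ran from 1.90 in testis to 7.56 in brain. Star, the cholesterol carrier of steroid-making cells, was at 2.58 ± 0.34 in testis and below 0 in every other group. Differences between lines were not tested, and apart from the genes on a list these transcripts were chosen after their values were seen.

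**Figure D3:**
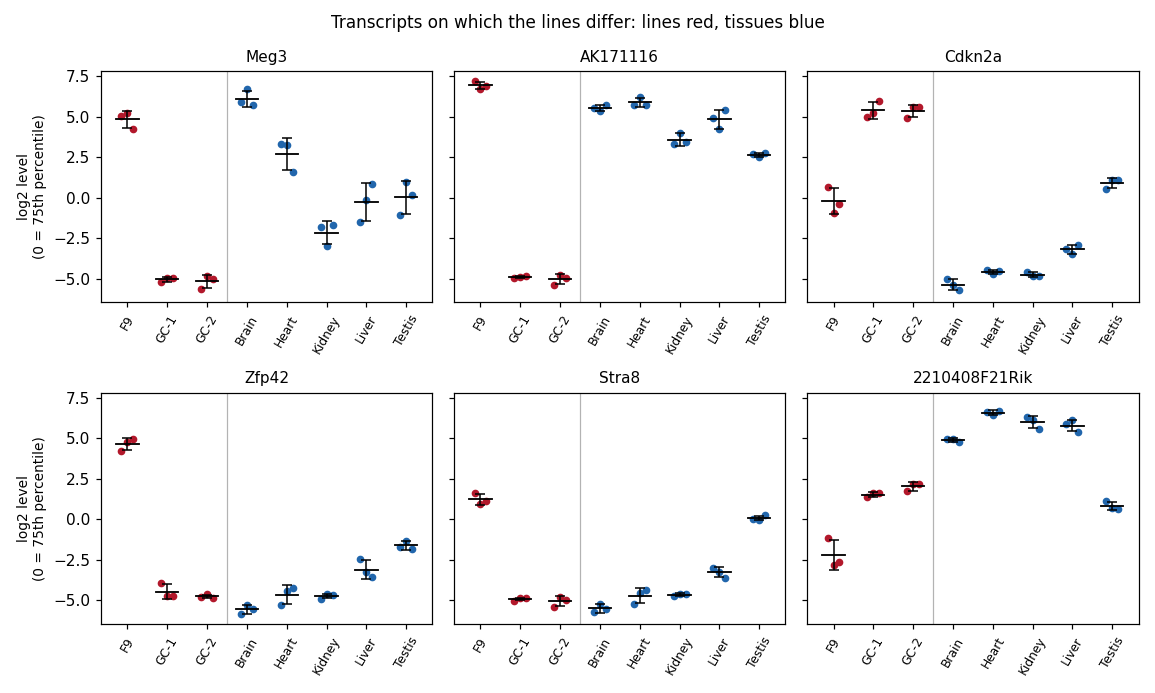
Log2 level on each of the 24 arrays for 6 transcripts on which the lines stood apart, with lines in red, tissues in blue, points for arrays and black bars for the mean ± SD of 3 arrays. F9 lay above GC-1 and GC-2 for Meg3 (NR_003633 probe), AK171116, Zfp42 and Stra8, and below them for Cdkn2a and 2210408F21Rik (NR_040259 probe).

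Of the 3218 named lncRNA probes, 121 (3.76%) were lower and 305 (9.48%) were higher in the mean of the lines. The list of lncRNAs with strong signal in F9 supplied 4 of the 121 and 249 of the 305, so this split is not independent of how the names were obtained. BC028777, at the Ntn3 locus, was at 1.26 to 2.19 by line mean and at 8.01 to 9.57 in brain, heart, kidney and liver, but at 3.24 ± 0.17 in testis (SD, n = 3), where its difference from F9 was -1.05. 2210408F21Rik, by its NR_040259 probe, was at -2.21 ± 0.92 in F9, against 1.53 ± 0.15 for GC-1 and 2.05 ± 0.27 for GC-2, with testis at 0.83 ± 0.27 and the other tissues at 4.90 to 6.60 (SD, n = 3). Its 5 probes that were called by the contrast of means had differences of -4.06 to -4.46. Uncalled probes of it, if any, are not given here. AK180077, at the locus of the mitochondrial kinase gene Pink1, was the named transcript nearest to the threshold from outside, with a smallest difference of -2.13 for GC-2 and testis and line means of 1.28, 2.28 and 3.65 against 5.78 to 8.34 in the tissues. Of the 33 broadly known lncRNAs listed, 11 were identified with 22 probes, and 3 probes, of Meg3 and Peg13, were lower in the mean. The median over the 22 was -0.68, where it was 0.07 over all transcripts. Meg3, Malat1 and Rian gave several probes each, so this median is over probes and does not describe the genes one by one. Malat1 (-0.86 by its brightest probe) and H19 (-0.51) were not called, and the H19 level was 8.32 to 11.34 in every group.

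The balance of lower and higher transcripts depended on how arrays were scaled to each other. Under the 75th percentile of all probes 23.2% of the calls were lower. Under the 75th percentile of the 13551 probes above background on every array, 168 were lower and 92 higher (64.6% lower), under the median 76 and 384 (16.5%) and under quantile normalization 82 and 268 (23.4%). For the contrast of means the lower share was 50.2%, 81.7%, 37.3% and 51.3% in the same order. The median difference over all transcripts moved with it, being 0.07, -0.61, 0.32 and -0.01. None of the 43 named transcripts changed sign under these scalings. Both lower ones were called under all 4, and 12 of the 41 higher ones were: Gm11369, AK043271, Ccna2, Melk, Sgol1, Gm11485, Gm15216, Tyms-ps, Gm15654, Hist1h2aj, Snhg1 and Cmtm7. Top2a and Kif11 were not called under the scaling to probes above background on every array, where their smallest differences were 1.51 and 1.23.

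**Figure D4:**
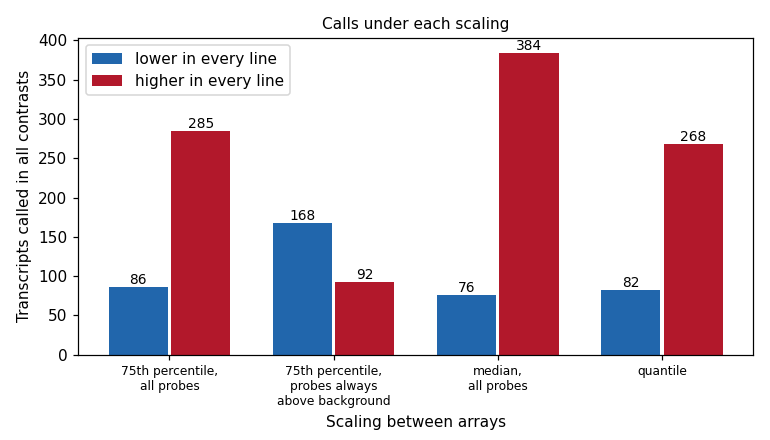
Number of transcripts, of 60804, that were at least 5-fold lower (blue) or higher (red) in every line than in every tissue under 4 scalings between arrays. Lower and higher transcripts numbered 86 and 285 under the 75th percentile of all probes and 168 and 92 under that of the probes above background on every array.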

How the data were processed

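Total RNA of 24 samples was labeled with Cy3 and hybridized to Arraystar mouse lncRNA arrays, 1 sample per array. The authors quantified the scans with Feature Extraction 11.5.1.1 and deposited, for each array, the intensity of every spot after background subtraction and detrending, the median intensities of spot and background, and other values, which are 0 or 1 flags for a signal above background. A deposited table of intensities held the same processed signals (largest relative difference 0.000228). Nothing was normalized between arrays before deposit. The methods name GeneSpring GX for that step, and its percentile and floor are not given in the sources used here.

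Intensities of the 60804 transcript probes were log2-transformed and scaled by subtracting, within each array, their 75th percentile. Groups were taken from the labels. A model with 1 coefficient for each of 8 groups was fitted to 24 arrays (lmFit and eBayes, limma 3.58.1, R 4.3.3), and p-values were adjusted by the method of Benjamini and Hochberg across the 60804 probes, contrast by contrast. limma took the place of the methods' t-test because a group has 3 arrays. The steps were tested on simulated data. Other steps used Python 3.11.15, numpy 2.4.6, pandas 2.3.3 and scipy 1.17.1, with matplotlib 3.10.9 for plots. A fold printed with "at least" sets each array of a group without signal above background to the lowest signal above background on that array, or to the probe's own signal where that was higher. The number of arrays limits the precision, and p-values measure the spread between these samples.

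Named transcripts were the 12 in each direction with the largest smallest-of-15 difference, called members of gene lists and the 3 brightest identified members of each list, and those nearest to 5-fold. The other called names are given too. Lists covered proliferation, hosts of small nucleolar RNAs, known lncRNAs, ribosome assembly, oxidative phosphorylation, glycolysis, circadian output, antigen presentation and cell types. The lists from ribosome assembly to antigen presentation gave 0 identified genes. So did those for red blood cells, endothelial cells, immune cells, fibroblasts, brain, heart, kidney and liver. Members and lists were chosen with earlier results of these data known. Names, positions and probe sequences come from the supplementary lists of the study, whose values were not used. Their build is not given in the sources used here, and 38 of 38 positions with a RefSeq gene of that name overlapped it in GRCm38.p6.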

Additional observations from a re-analysis of the deposited data

How the results depend on the processing

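Calls near the threshold and calls that rest on the scaling were the least stable. Leaving out each array in turn gave 78 to 91 transcripts lower and 272 to 296 higher in every line, 2507 to 2658 and 2499 to 2615 by the contrast of means, and 35 to 46 and 68 to 86 for presence above background in lines or tissues alone. Replicate number as a block left 86, 285, 2586 and 2563. Each group holds each number once, so this block could change p-values but no difference, and the unchanged counts say little about stability. The labels do not say what a number marks, and the arrays were not taken as pairs, although replicate 1 of all 8 groups shared a slide and a scan: the median correlation of deviations between arrays of the same number was 0.06 (-0.14 to 0.29) and between other arrays -0.04, and 15 of 24 arrays correlated best with their own number. With the slide as a block the counts were 88, 292, 3015 and 2519, and within the slide of replicate 1, by fold alone, 90, 264, 3009 and 2589. Without GC-2 replicate 1 and liver replicate 1 they were 90 and 289 in every line.

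Scaled to the probes above background on every array, 168 and 92 transcripts were lower and higher in every line, 5219 and 1171 by the contrast of means, and a median of 2777 were higher per pair of line and tissue. Background correction by normexp on median intensities, chosen after seeing the data, gave 23 and 129, 501 and 1142, and medians of 1504 and 1793 per pair. The planned normexp on mean intensities was not run because the files used here hold medians. With groups below background set to the lowest signal above it, also chosen later, 45 were lower in every line and 1426 by the contrast of means. A 2-fold threshold gave 295 and 1729 (10076 and 10315 by means) and a 10-fold threshold 52 and 75 (969 and 804). Without testis 182 were lower and 486 higher in every line, and without F9 189 and 471. With each line or tissue as 1 unit the contrast of means called 104 and 576. The slide that holds only heart and the lines gave 2235 and 1415 by fold alone. The methods' t-test called 81 and 277 in every line and 2052 and 2537 by means unadjusted, and 71 and 260, and 1458 lower by means, after Benjamini-Hochberg adjustment. A laxer flag gave 5 and 38 transcripts above background in lines alone and tissues alone, and a common threshold of -0.76 gave 202 in lines alone. In these settings the number of other calls stayed within 1.5 times.

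Some mean differences changed sign, all of them uncalled except that of Zfp42. Star, at 0.051, was -0.63 with scaling to probes above background on every array, -0.47 under normexp, -0.44 with the set lowest signal, -0.24 without liver, -0.19 without both outlying arrays, and between -0.22 and 0.24 without single arrays, at -0.024, -0.025, -0.031, -0.14 and -0.22 without brain 2, heart 2, kidney 3, F9 2 and GC-2 1. 2900097C17Rik, at 0.17, was -0.52 (scaling), -0.35 (quantile), -0.50 (slide of heart and lines) and -0.36 (without testis). Dancr was -0.051 (scaling) and -0.52 (that slide). Zfp42 was called higher in the mean of the lines (2.40, adjusted p = 3.47e-11, limma), but its difference was -0.68 without F9. Stra8, uncalled at 0.70, was -1.37 without F9. Of the other values for single transcripts, 4701 kept side and direction, 164 lost the call, TCR-beta chain under normexp (-2.06) among them, and 2 gained it.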

Other observations

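Further transcripts of the contrast of means, picked after their values were seen, concern secreted factors and loci of organ-specific genes. The lncRNA probe at Cxcl14, which encodes a chemokine of epithelia and brain, was at 4.74 ± 0.19 in brain and 3.42 ± 0.13 in heart, at -0.56 ± 0.86 in GC-2, and on no F9 or GC-1 array above background (mean difference -4.54, SE 0.172, adjusted p = 2.48e-15, limma). The probe at Ptn, the gene of the growth factor pleiotrophin, was at 6.90 ± 0.12 in brain and at 1.82 ± 0.29 in heart, and above background on 3 of the 9 line arrays. AK156916, at the locus of the muscle and neuron transcription factor gene Mef2c, was at 4.14 ± 0.15 in brain and 3.54 ± 0.14 in heart (SD, n = 3) and above background on no line array. XLOC_025889 was at 3.497 to 5.14 in brain, heart, kidney and liver, but at -2.70 ± 0.07 in testis, and above background on 2 of 3 F9 arrays and on no GC-1 or GC-2 array. Gm14501 was the 1 named mRNA that was lower in the mean of the lines (-2.85): testis stood at 8.02 ± 0.19 and every other group below 0.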
